A study of Homo sapiens with 9 samples.

Results

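hsa-mir-425 and hsa-mir-191 are microRNA hairpins that lie next to each other on human chromosome 3. They are 2 of the 1485 hairpins counted in 9 small RNA libraries. The pair was chosen for the change of its within-library ratio after knockdown of ERH, so its values in that contrast describe the choice and carry no test. Both hairpins passed the filter on low counts in every comparison.

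The libraries came from 2 established human cell lines that received small interfering RNAs (siRNAs) against ERH, called siERH-3 and siERH-5, or the control siRNAs siGFP and siControl. HEK293E, a line derived from embryonic kidney cells, was transfected on days 0 and 3 and harvested on day 5. Of its 7 libraries, replicate 1 holds siGFP, siControl and siERH-3, and replicate 2 holds these and siERH-5. K562, a leukaemia line with erythroid and myeloid features, was electroporated and harvested after 4 days, with 1 siGFP and 1 siERH-5 library. No untransfected library was analysed here, so every control carries an siRNA. The libraries hold RNA of 18 to 30 nt from whole cultures. ERH mRNA was not measured, so the knockdown itself was not checked.

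MicroRNAs are cut from long primary transcripts by the Microprocessor, made of the nuclease DROSHA and its RNA-binding partner DGCR8. This releases a hairpin that DICER then trims to a duplex of mature strands, called 5p and 3p, and a strand loaded into an Argonaute protein directs repression of messenger RNAs through its seed near the 5′ end. ERH is a small conserved nuclear protein that binds DGCR8, and it has been described as helping hairpins that are poor Microprocessor substrates when a good substrate lies beside them. Neighbouring hairpins can be cut from the same primary transcript, so a ratio within a pair compares them at a shared source and needs no scaling between libraries. miR-191 is found in many tissues and is often used as a reference in miRNA assays, and miR-425 is made from the same host gene.

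Both hairpins lie on the minus strand of chromosome 3 (GRCh38, GENCODE release 29). MIR191 spans chr3:49020618-49020709 and is 92 nt long. MIR425 spans chr3:49020148-49020234 and is 87 nt long. In the direction of transcription MIR191 comes first and MIR425 follows after 383 bases. Both fall inside DALRD3 (chr3:49015488-49022293, minus strand), where 4 of its 15 annotated transcripts span them and 0 exons overlap either, so they are intronic. MIR191 also lies within NDUFAF3 (chr3:49020459-49023495), annotated on the opposite strand, in 1 of its 6 transcripts and in 0 exons. MIR425 is outside NDUFAF3.

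The hairpin sequences are shown because counts were made per hairpin and the predicted folds described further on are computed from them. Sequences are from RefSeq (GRCh38.p14), 5′ to 3′ on the transcribed strand, and capitals in a hairpin mark annotated mature strands. Those strands are miR-425-3p (bases 55 to 76) in hsa-mir-425, and miR-191-5p (bases 16 to 38) and miR-191-3p (bases 58 to 79) in hsa-mir-191.
hsa-mir-425: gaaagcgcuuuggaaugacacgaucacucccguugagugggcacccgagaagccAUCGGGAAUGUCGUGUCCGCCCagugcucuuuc
hsa-mir-191: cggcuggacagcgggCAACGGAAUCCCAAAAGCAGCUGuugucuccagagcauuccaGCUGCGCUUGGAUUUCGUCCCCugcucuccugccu

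The mature strands are shown to compare their seeds, bases 2 to 8, which are in capitals.
hsa-miR-425-3p: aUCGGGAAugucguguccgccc
hsa-miR-191-5p: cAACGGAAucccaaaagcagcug
hsa-miR-191-3p: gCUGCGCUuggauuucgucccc
Of the 4 strands, hsa-miR-425-5p is named only. The 3 seeds differ from each other, and each is carried by 1 of the 2370 mature miRNAs in the RefSeq table. No other mature strand in that table shares a seed with these 3, and strands that the table does not list were not searched.

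Library totals ranged from 2609929 to 3320017 counts, and 1061 to 1297 hairpins had a count above 0. Of 6 hairpins named as K562 markers, 5 were higher in both K562 libraries than in any HEK293E library. The exception was the lymphoid miRNA hairpin hsa-mir-150, whose levels overlapped. All 4 hairpins named as HEK293E markers were higher in every HEK293E library. No library went against its cell line label.

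In HEK293E cells with a control siRNA the hairpins stood at nearly equal counts. hsa-mir-425 had 20804 counts and hsa-mir-191 had 17735 in siGFP replicate 1. In siControl replicate 1 the counts were 16560 and 14998, in the same order. They were 12582 and 13331 in siGFP replicate 2, and 13244 and 15680 in siControl replicate 2. Thus hsa-mir-425 was the more abundant in both libraries of replicate 1 and the less abundant in both of replicate 2.

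With siRNAs against ERH hsa-mir-425 was the lower of the pair in every library. Its counts were 7037 in siERH-3 replicate 1, 5929 in siERH-3 replicate 2 and 6553 in siERH-5 replicate 2. hsa-mir-191 had 13883, 14176 and 15286 counts in these libraries. On raw counts the 3 values of hsa-mir-425 lay below all 4 controls, while those of hsa-mir-191 fell within the range of the controls.

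hsa-mir-425 was also the lower of the pair in both K562 libraries. In K562 siGFP, hsa-mir-425 had 17046 counts and hsa-mir-191 had 18836. In K562 siERH-5 the counts were 12762 and 25276. The depth behind each share of the pair was therefore 20105 to 38539 counts, so counting error was small beside the spread between libraries.

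hsa-mir-425 made up 53.98% of the pair's counts in siGFP replicate 1 (95% Wilson interval 53.48 to 54.48%) and 52.47% in siControl replicate 1 (51.92 to 53.03%). Its share was 48.55% in siGFP replicate 2 (47.95 to 49.16%) and 45.79% in siControl replicate 2 (45.22 to 46.36%). The controls of a replicate lay within a few percentage points of each other, with intervals that did not overlap. Such intervals cover counting error only, since reads made by PCR are not independent molecules.

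The siERH libraries all lay lower. The share was 33.64% in siERH-3 replicate 1 (33.00 to 34.28%), 29.49% in siERH-3 replicate 2 (28.86 to 30.12%) and 30.01% in siERH-5 replicate 2 (29.40 to 30.62%). In K562 it was 47.51% with siGFP (46.99 to 48.02%) and 33.55% with siERH-5 (33.08 to 34.03%). No siERH library reached the lowest control of its line.

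**Figure D1:**
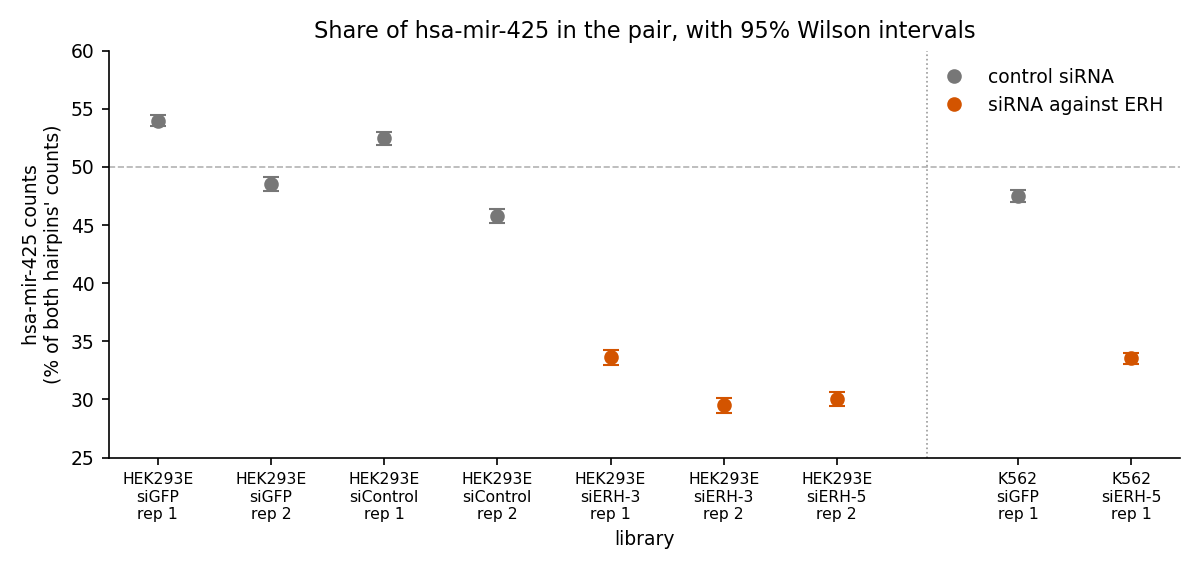
Share of hsa-mir-425 in the counts of the pair, in percent, for each of the 9 libraries (x axis), with 95% Wilson intervals as bars, grey for control siRNAs and orange for siRNAs against ERH. Controls lie between 45.79% and 53.98% and siERH libraries between 29.49% and 33.64%.

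Expressed as log2 of hsa-mir-425 over hsa-mir-191 counts, the ratio was 0.23 in siGFP replicate 1, 0.14 in siControl replicate 1, -0.08 in siGFP replicate 2 and -0.24 in siControl replicate 2. It was -0.98 in siERH-3 replicate 1, -1.26 in siERH-3 replicate 2 and -1.22 in siERH-5 replicate 2. The mean was 0.01 ± 0.22 (SD, n = 4) in controls and -1.15 ± 0.15 (SD, n = 3) with siERH. The difference of -1.16 on the log2 scale, a ratio 2.24-fold lower, is the value the pair was chosen by.

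Each siERH library was also set against the controls of its own replicate number. The log2 ratio differed by -1.17 in siERH-3 replicate 1, -1.09 in siERH-3 replicate 2 and -1.06 in siERH-5 replicate 2. The replicate 2 values share their controls. In K562 the ratio went from -0.14 with siGFP to -0.99 with siERH-5, a difference of -0.84 between single libraries, with no replicate check. Within replicate 2 the ratio of siERH-5 lay 0.04 (log2) above that of siERH-3, again a difference between single libraries.

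Levels scaled for depth separate the hairpins' contributions to that ratio. They are given here as CPM, counts per 1000000 after TMM scaling (a trimmed-mean scaling of library sizes in edgeR) within each cell line. For hsa-mir-425 the controls stood at 5944 (siGFP replicate 1), 5817 (siControl replicate 1), 5306 (siGFP replicate 2) and 5035 CPM (siControl replicate 2). The siERH libraries stood at 2086 (siERH-3 replicate 1), 1809 (siERH-3 replicate 2) and 1862 CPM (siERH-5 replicate 2). The arms were far apart, with the highest siERH library below the lowest control.

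hsa-mir-191 differed less. Its controls stood at 5067 (siGFP replicate 1), 5269 (siControl replicate 1), 5622 (siGFP replicate 2) and 5961 CPM (siControl replicate 2). Its siERH libraries stood at 4116 (siERH-3 replicate 1), 4325 (siERH-3 replicate 2) and 4343 CPM (siERH-5 replicate 2). Here too the arms did not overlap, but the gap between them was narrow. Such a separation was common: 44.6% of the 773 hairpins tested had arms that did not overlap.

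The mean level of hsa-mir-425 was 5526 ± 428 CPM in controls (SD, n = 4) and 1919 ± 147 CPM with siERH (SD, n = 3). The fitted log2 fold change was -1.53 ± 0.15 (SE), or 2.88-fold lower. For hsa-mir-191 the mean was 5480 ± 394 CPM in controls and 4261 ± 126 CPM with siERH, with a fitted log2 fold change of -0.36 ± 0.14 (SE), or 1.29-fold lower. The median log2 fold change of the 773 hairpins was -0.01. Relative to that median hsa-mir-425 stood at -1.52 and hsa-mir-191 at -0.35. With library totals in place of TMM the median moved to 0.19, and relative to it the values were -1.54 and -0.36.

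In rank order of counts within a library, hsa-mir-425 was 45th to 63rd in the HEK293E controls and 103rd to 122nd in the siERH libraries. hsa-mir-191 was 52nd to 56th in controls and 55th or 56th with siERH. The rank of hsa-mir-191 thus barely moved while hsa-mir-425 dropped below many hairpins.

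**Figure D2:**
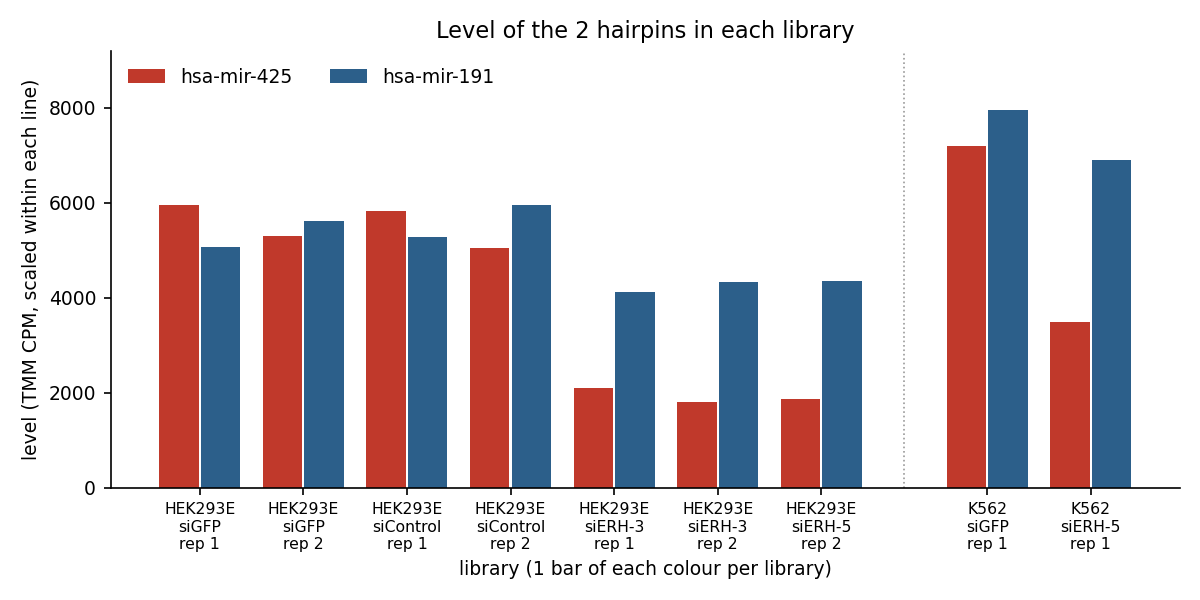
Level of hsa-mir-425 (red) and hsa-mir-191 (blue) in each library, in TMM CPM scaled within each cell line (y axis), 1 bar per library and hairpin. In HEK293E, hsa-mir-425 goes from between 5035 and 5944 CPM in controls to between 1809 and 2086 CPM with siERH, and hsa-mir-191 goes from between 5067 and 5961 to between 4116 and 4343 CPM.

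In K562, hsa-mir-425 stood at 7197 CPM with siGFP and 3487 CPM with siERH-5, a log2 difference of -1.05. hsa-mir-191 stood at 7952 and 6906 CPM, a log2 difference of -0.20. The direction of hsa-mir-191 in K562 depends on the scaling: on the deposited RPM values, which divide by library totals, its difference was 0.08 and that of hsa-mir-425 was -0.76. The median of 646 hairpins in these libraries was 0.12 on the TMM scale and 0.39 on the RPM scale. Relative to the median, hsa-mir-191 stood at -0.32 (TMM) and -0.31 (RPM), and hsa-mir-425 at -1.16 (TMM) and -1.15 (RPM).

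The tests between control siRNAs, between replicate numbers and between cell lines, given next, were not used to choose the pair. The control siRNAs were compared first, for the spread of both hairpins without a change in the target. siControl against siGFP gave a log2 fold change of -0.06 ± 0.24 (SE) for hsa-mir-425 and 0.07 ± 0.24 (SE) for hsa-mir-191, each with an adjusted p of 0.959 by edgeR's quasi-likelihood test, adjusted over all hairpins by Benjamini-Hochberg. In that test 0 of 730 hairpins (0%) passed an adjusted p of 0.05, with 24 at an unadjusted p under 0.05 and 4 called by DESeq2. With the replicate number as a block 18.2% passed, and the members did not (adjusted p = 0.733 for hsa-mir-425 and 0.724 for hsa-mir-191, edgeR).

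The log2 ratio of siControl minus that of siGFP was -0.09 in replicate 1 and -0.16 in replicate 2, a mean of -0.12. An exact permutation test of the 2 against 2 libraries gave p = 0.667 (two-sided), where 0.333 is the smallest value the design allows. The test could not have passed in this design and takes no account of the replicate number. siControl was the lower in 2 of 2 replicates, so a small difference between the control siRNAs was neither shown nor excluded.

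Replicate number marks an experimental group in the labels, and the pair's ratio differed with it. The log2 ratio of replicate 2 minus that of replicate 1 was -0.31 with siGFP, -0.39 with siControl and -0.28 with siERH-3, lower in 3 of 3 siRNAs. The mean difference was -0.33 ± 0.06 (SD, n = 3), and an exact sign-flip permutation test gave p = 0.25 (two-sided), the smallest value that 3 pairs allow. This difference has the same sign as that of siERH and is smaller. The siERH difference was -1.17 within replicate 1 and between -1.09 and -1.06 within replicate 2.

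The members had values of opposite sign in that comparison, and neither passed the test. hsa-mir-425 had a log2 fold change of -0.19 ± 0.11 (SE, adjusted p = 0.23, edgeR) and hsa-mir-191 one of 0.14 ± 0.11 (SE, adjusted p = 0.381, edgeR), replicate 2 over replicate 1. Of 759 hairpins 23.3% passed, or 177, and this count depends on which siRNAs enter. With siRNA as a term, leaving out 1 library also takes its partner out of the replicate comparison. The count was 0 without siGFP replicate 1 or without siGFP replicate 2. It was 16 without siControl replicate 1 and 25 without siControl replicate 2. Without siERH-3 replicate 1 it was 305, and without siERH-3 replicate 2 it was 184. With library totals hsa-mir-425 passed, at -0.34 (adjusted p = 0.02, edgeR), where the median of all hairpins was -0.17. That library-total value relative to the median was -0.17, as it was with TMM.

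Both hairpins were higher in K562 than in HEK293E with TMM scaling, by nearly the same factor in the fit over both siRNAs. The fit used the siRNAs common to both lines, with siRNA as a term, and TMM scaling over these 5 libraries. The siRNA effect was taken as equal in both lines, though for hsa-mir-425 it was -1.53 in HEK293E and -1.05 in K562. K562 had no replicate of either siRNA, so the p-values hold no spread between like K562 libraries. hsa-mir-425 had a log2 fold change of 1.56 ± 0.30 (SE, adjusted p = 0.00214) and hsa-mir-191 one of 1.58 ± 0.28 (SE, adjusted p = 0.00133), by edgeR's quasi-likelihood test. These are 2.95-fold and 2.99-fold. The near-equality averages over siRNAs that differed. With siGFP libraries alone the log2 values were 1.37 for hsa-mir-425 and 1.58 for hsa-mir-191. Without K562 siGFP replicate 1, where only siERH-5 sets the lines against each other, they were 1.93 and 1.69. Of 783 hairpins 25% were called higher in K562, so a higher level in K562 was a frequent outcome.

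The size and the call depend on the scaling. With library totals the values were 0.53 (adjusted p = 0.141) for hsa-mir-425 and 0.55 (adjusted p = 0.0999) for hsa-mir-191, and the median of all hairpins moved by -1.02. Relative to the median of all hairpins, hsa-mir-425 was 1.63 higher with TMM and 1.62 higher with library totals, and hsa-mir-191 was 1.65 higher with either. Lower calls made up 53.99% of all calls with TMM and 78.16% with library totals. Over 11 alternatives the adjusted p ranged from 1.27e-06 to 0.141 for hsa-mir-425 and from 3.89e-07 to 0.0999 for hsa-mir-191.

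With fewer libraries the K562 values stayed above 0, but some calls were lost as the standard errors widened. Without HEK293E siERH-5 replicate 2, hsa-mir-425 stood at 1.27 ± 0.62 (SE), against 0.30 as the SE with all 5 libraries. Without K562 siGFP replicate 1, hsa-mir-191 stood at 1.69 ± 0.75 (SE), against 0.28. Neither value was called in these fits. With siGFP libraries alone hsa-mir-425 stood at 1.37 ± 0.62 (SE) and hsa-mir-191 at 1.58 ± 0.62 (SE). The fit without HEK293E siERH-5 replicate 2 rests on the same siGFP libraries, since the siRNA term takes up its lone siERH library. The same holds without K562 siERH-5 replicate 1, so these fits are not separate checks. Cell line, transfection method, harvest time and experimental group change together here and cannot be told apart. As these are bulk libraries, a difference in all cells of a culture and one in some of them cannot be told apart either.

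**Figure D3:**
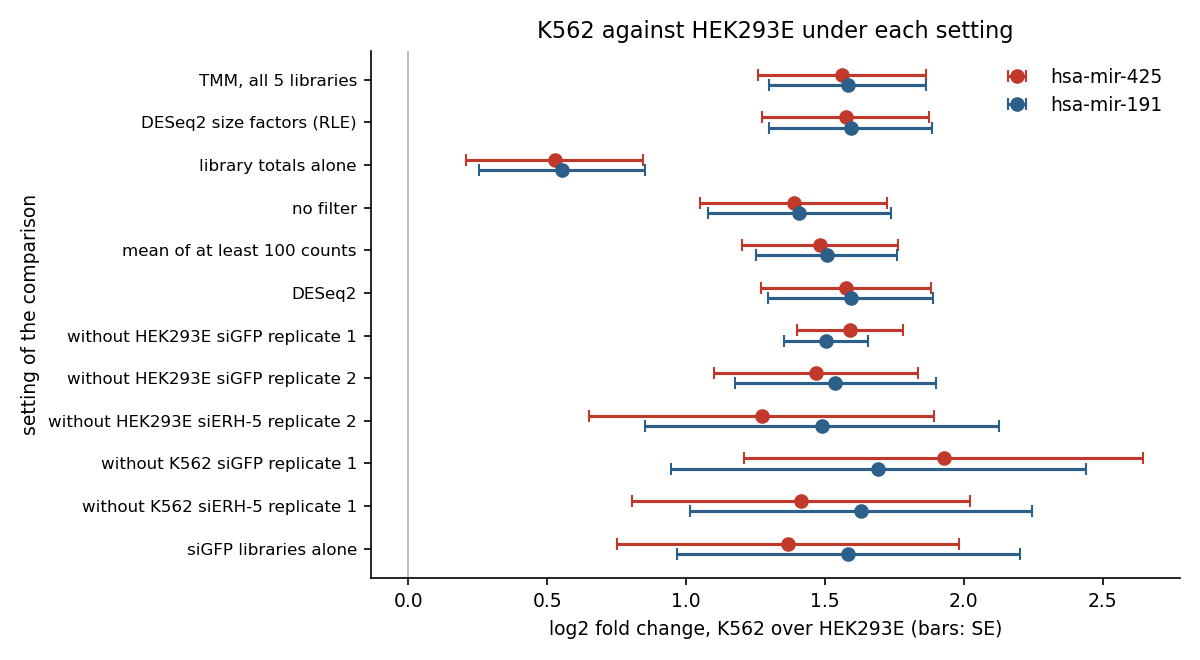
Log2 fold change of K562 over HEK293E (x axis) for hsa-mir-425 (red) and hsa-mir-191 (blue) under each setting of the comparison (y axis), with standard errors as bars. All values are above 0, and scaling by library totals brings them to 0.53 and 0.55. The members lie close together with all 5 libraries and further apart with siGFP libraries alone (1.37 for hsa-mir-425 and 1.58 for hsa-mir-191).

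The within-library ratio needs no scaling between the lines, and its siERH values, which belong to the choice of the pair, are given as a description. It was -0.14 in K562 siGFP, within the HEK293E control range of -0.24 to 0.23. It was -0.99 in K562 siERH-5, within the HEK293E siERH range of -1.26 to -0.98. At 1 library per siRNA, K562 thus lay inside the spread of HEK293E in both arms, but at its upper edge with siERH. HEK293E siERH-5 replicate 2 stood lower, at -1.22. The K562 difference of -0.84 was smaller in size than that of each HEK293E siERH library, which lay between -1.17 and -1.06.

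The pair was then placed among other neighbouring hairpins. The order uses the same siERH ratio change that the pair was chosen by, so a high place in it follows from the choice and is no separate support. Hairpins with a mean count of 100 or more in HEK293E and no near-identical copy were kept. Those that then followed each other on the same strand within 10 kb were paired, which gave 38 pairs. A left-out hairpin can lie between paired ones. The ratio is that of the downstream over the upstream hairpin. The median absolute change with siERH was 0.37 (log2), 5 pairs differed at least 2-fold and 13 pairs (34.2%) had arms that did not overlap. The ratio was lower with siERH in 20 of the 38, so a fall of the ratio is shared by about as many pairs as not. A lower ratio does not tell which hairpin of a pair changed.

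hsa-mir-425 over hsa-mir-191 ranked 4th of 38 by absolute change. The pairs ahead were hsa-mir-940 over hsa-mir-3677 (4.15), hsa-mir-132 over hsa-mir-212 (3.24) and hsa-mir-449a over hsa-mir-449c (2.28). In all 3 the ratio was higher with siERH and the upstream hairpin was the less abundant, with a mean of 123 counts for hsa-mir-3677, 244 for hsa-mir-212 and 197 for hsa-mir-449c. The members had means of 11816 counts (hsa-mir-425) and 15013 counts (hsa-mir-191). Among the 30 pairs formed when a mean count of 1000 was asked of each hairpin, the members ranked 1st.

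The pairs just behind were hsa-mir-502 over hsa-mir-660 (-1.07), hsa-let-7e over hsa-mir-99b (0.93) and hsa-mir-188 over hsa-mir-532 (0.92). Hairpins mir-502, mir-660, mir-188 and mir-532 belong to a cluster on the X chromosome, and let-7e lies in a cluster with mir-99b and mir-125a. In the K562 libraries the members ranked 4th of the 30 pairs whose hairpins both had a mean of at least 100 counts there. The median absolute change of these pairs was 0.42. The pairs ahead in HEK293E did not pass this filter. Their K562 changes were 3.16 for hsa-mir-940 over hsa-mir-3677, 3.07 for hsa-mir-132 over hsa-mir-212 and 0.36 for hsa-mir-449a over hsa-mir-449c, beside -0.84 for the members. hsa-let-7e over hsa-mir-99b had the opposite sign in K562, at -0.41, whereas hsa-mir-502 over hsa-mir-660 was at -1.26.

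**Figure D4:**
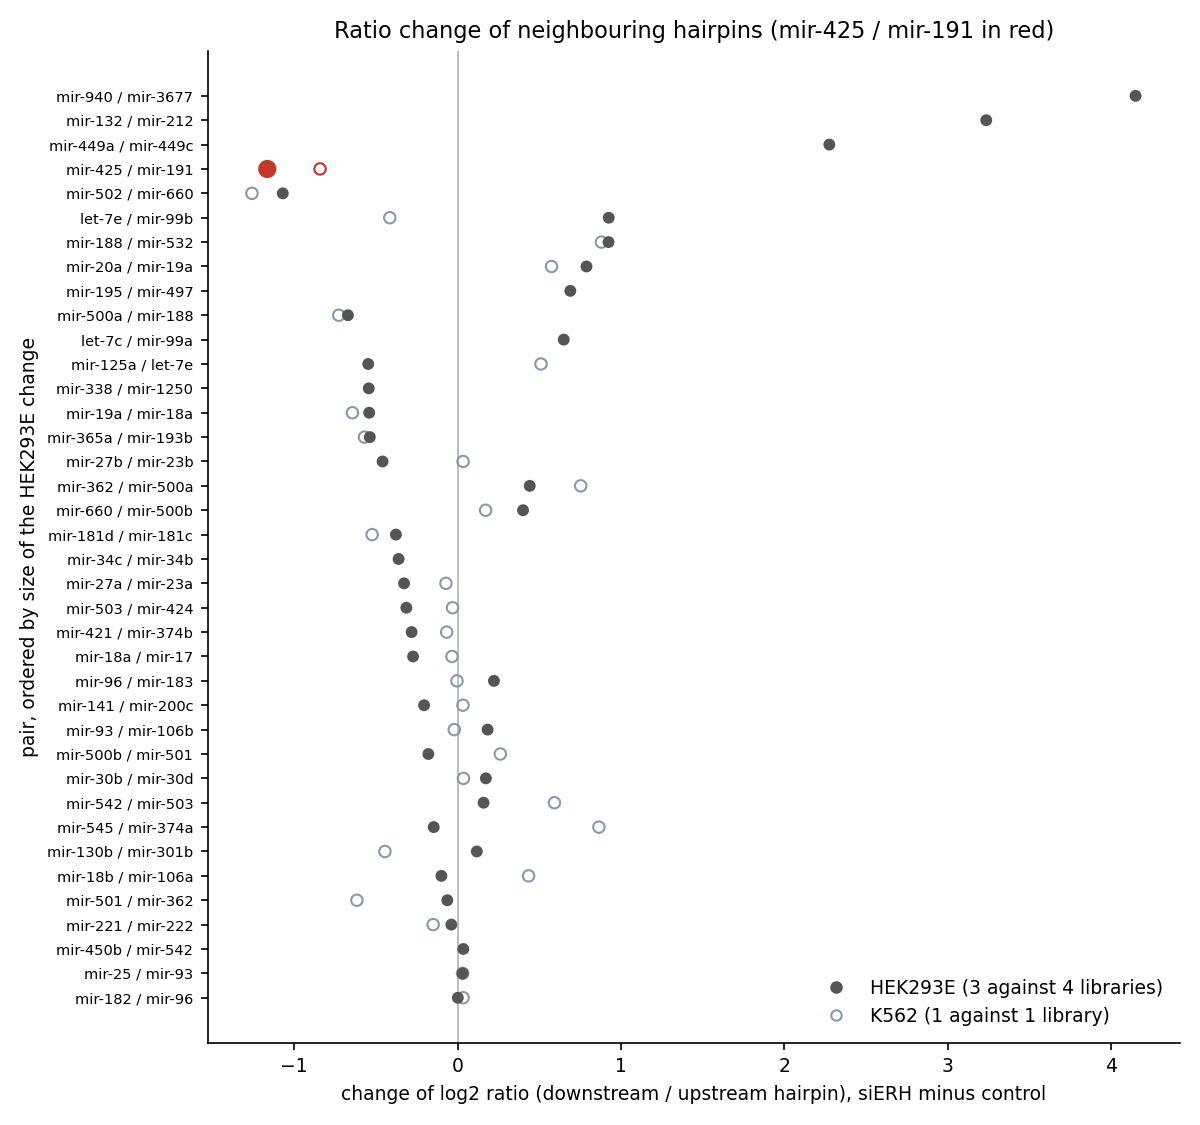
Change of the log2 ratio of the downstream over the upstream hairpin, siERH minus control (x axis), for 38 neighbouring pairs ordered by size (y axis), as filled points for HEK293E and open points for K562 where both mean counts were 100 or more. hsa-mir-425 over hsa-mir-191, in red, is 4th at -1.16 in HEK293E and lies at -0.84 in K562.

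Single hairpins with a known neighbour were also counted, from a list of 39 that were all measured. With siERH 11 were lower, 0 higher and 28 did not pass the test, against 16.2% lower and 23.8% higher among all 773 hairpins (edgeR's quasi-likelihood test). The list's median log2 fold change was -0.29, beside -0.01 for all. The list was drawn up with earlier results of these data known and so is not independent evidence of its direction. With library totals 6 were lower and 2 higher, without siERH-3 replicate 2 there were 7 lower, and without siControl replicate 2 there was 1 higher. With the replicate block 15 were lower and 1 higher.

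The largest changes on the list were those of hsa-mir-212, hsa-mir-192 and hsa-mir-15a. hsa-mir-212, the neighbour of hsa-mir-132, fell from 144 ± 59.9 to 15.1 ± 4.63 CPM (SD, n = 4 and 3), a log2 fold change of -3.24 ± 0.38 (SE, adjusted p = 0.000113, edgeR). hsa-mir-192, a miRNA of kidney and gut epithelium, fell from 528 ± 29.9 to 178 ± 20.8 CPM, at -1.57 ± 0.17 (SE, adjusted p = 8.02e-05, edgeR). hsa-mir-15a, whose neighbour is hsa-mir-16-1 and which is known to target BCL2, fell from 8927 ± 2038 to 3680 ± 265 CPM, at -1.28 ± 0.20 (SE, adjusted p = 0.000768, edgeR). hsa-mir-425, at -1.53 ± 0.15 (SE), lay between hsa-mir-192 and hsa-mir-15a, in the contrast that the pair was chosen in.

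Likeness of pattern was measured by Pearson's r of log2 TMM CPM over the 7 HEK293E libraries, for the 418 hairpins whose mean count was 100 or more. The points share libraries and fall into control and siERH libraries, so r reflects that split, which is also the contrast of the choice, and is a description. The hairpins most like hsa-mir-425 were hsa-mir-181b-2 (r = 0.995), its copy hsa-mir-181b-1 (r = 0.995) and hsa-mir-502 (r = 0.995). The hsa-mir-181b copies make the same mature 5p strand, so they count as 1 pattern. hsa-mir-181b-2 went from 5417 ± 556 to 2018 ± 178 CPM, much the same levels as hsa-mir-425, and hsa-mir-502 from 1264 ± 88.1 to 541 ± 26.6 CPM (SD, n = 4 and 3).

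hsa-mir-191 was most like other hairpins. Those were hsa-mir-98 of the let-7 family (r = 0.997), hsa-mir-15a (r = 0.995) and hsa-mir-181c (r = 0.992). hsa-mir-98 went from 103 ± 8.89 to 71.7 ± 3.53 CPM, and hsa-mir-181c from 1411 ± 246 to 655 ± 56.1 CPM (SD, n = 4 and 3). The members' own r was 0.878. That placed hsa-mir-191 61st in the order for hsa-mir-425, and hsa-mir-425 46th in the order for hsa-mir-191.

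The annotated hairpins printed above differ in their predicted folds. RNAfold gave hsa-mir-425 a minimum free energy of -34.5 kcal/mol, and 79.8% of 639 hairpins of 80 to 100 nt had a lower, more stable value. hsa-mir-191 had -46.8 kcal/mol, with 35.2% of the same hairpins lower, and their median was -42.4 kcal/mol. In hsa-mir-425 66.7% of bases were paired and in hsa-mir-191 71.7%, against a median of 74.7%. The terminal loop, the unpaired end of the hairpin, was 12 nt in hsa-mir-425 and 7 nt in hsa-mir-191, with a median of 6 nt and 86.2% of hairpins below 12 nt. hsa-mir-425 was therefore on the less stable side of these hairpins and hsa-mir-191 near the middle.

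**Figure D5:**
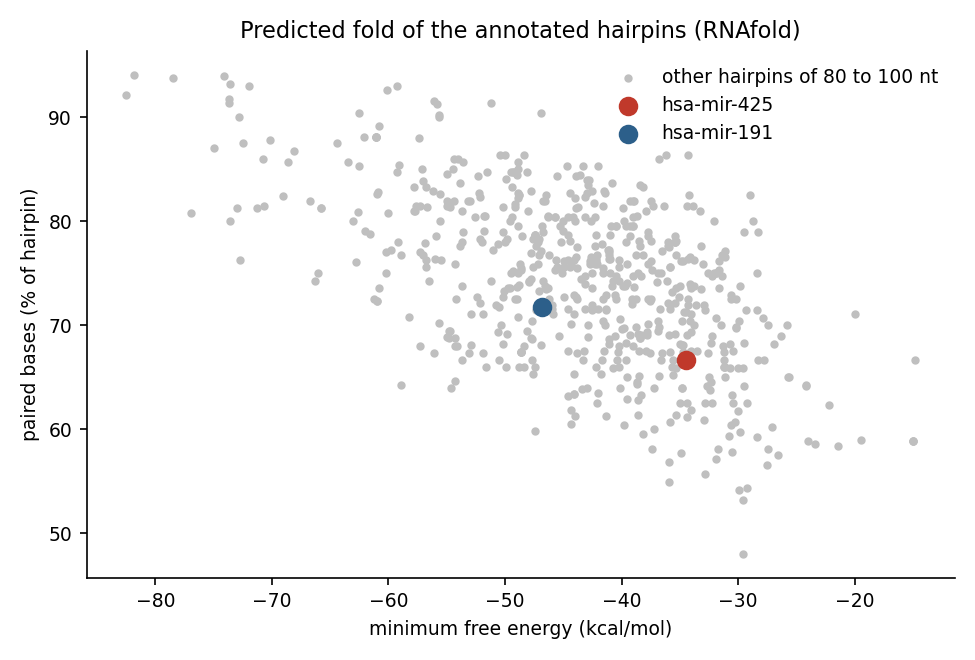
Predicted minimum free energy in kcal/mol (x axis) against paired bases in percent of the hairpin (y axis) for hairpins of 80 to 100 nt, 1 point each, with hsa-mir-425 in red and hsa-mir-191 in blue. hsa-mir-425, at -34.5 kcal/mol and 66.7%, lies to the right of and below hsa-mir-191, at -46.8 kcal/mol and 71.7%.

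Short motifs linked to Microprocessor recognition were searched on the hairpin's own strand, since the other strand is not part of the RNA, with overlapping matches counted. UGU was present in both members and in 84.7% of the 639 hairpins. UGU lay in the terminal loop of neither, against 11.1% of hairpins. CNNC had 5 matches in hsa-mir-425 and 12 in hsa-mir-191, and 97.8% of hairpins had at least 1. UG had 7 matches in each, and lay within the first 10 bases of hsa-mir-191 and not of hsa-mir-425, against 62.6% of hairpins. UGU contains UG, so these matches overlap. Flanking sequence, where the basal UG and CNNC motifs usually lie, is largely outside the annotated hairpins, and a match is a description of letters and not of a site.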

How the data were processed

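Small RNA was sequenced from 9 libraries, grouped by what their labels give as cell line, siRNA and replicate. The authors deposited whole-number counts per hairpin, made with cutadapt, Bowtie2 and bedtools on hg38 per the submitters' processing notes. The authors also deposited RPM values, which recomputation showed to be the count plus 1 over the total plus 1485, per 1000000. Versions and the treatment of reads that fit several hairpins are not given in the sources used here. The 5p and 3p strands are not separated, and spike-in RNAs were not used here, so changes are relative to other hairpins.

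Counts of hairpins with a mean of at least 10 were fitted with edgeR 4.0.16 in R 4.3.3 (TMM, quasi-likelihood test, Benjamini-Hochberg over all hairpins, threshold 0.05), with DESeq2 1.42.0 as an alternative. The edgeR step alone was run on simulated counts that held no effect other than the tested one. That run does not cover deviations shared by same-numbered libraries. A standard error is the log2 fold change over the square root of F. The labels do not say whether replicates are separate cultures, so p-values measure the spread between these libraries. Folds were predicted with RNAfold 2.7.2. Both members matched the RefSeq table, with 3 mature strands. The 2 members and the gene lists were chosen with earlier results of these data known.

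Named hairpins were the members, hairpins sharing a seed, the 3 most like each member, the 3 pairs on either side in the order of ratio changes, and up to 3 list members called in each direction. Replicate numbers match the experimental group in the labels, and same-numbered libraries deviated together. Over 773 hairpins r was 0.692 for siGFP with siControl, 0.48 for siGFP with siERH-3 and 0.519 for siControl with siERH-3. The numbers were therefore taken to pair the libraries where differences within a replicate number are given. The main fits of siERH against control and of siControl against siGFP held no replicate term. Their standard errors, p-values and calls ignore the pairing, which enters only with the replicate block. Alternatives were other scalings, filters, DESeq2, the replicate block, RPM values and leaving out each library. Control siRNA libraries alone for the K562 comparison and RPM values for the K562 siRNA comparison were added after seeing the data.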

Additional observations from a re-analysis of the deposited data

How the results depend on the processing

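The within-library ratio kept its sign and stayed within 1 SD under every alternative run, from -1.25 to -1.09 when 1 HEK293E library was left out, and -1.11 with the replicate block. For siERH against control, library totals gave -1.35 for hsa-mir-425 and -0.17 for hsa-mir-191, whose value with no filter was -0.46. The replicate block gave -1.49 and -0.38, and it changed no call of a member in siControl against siGFP. All hairpins called lower with siERH numbered 67 with library totals, 63 with at least 100 counts and 76 to 130 with 1 library left out, against 125, and those higher 82 with at least 100 counts, against 184. The calls with at least 100 counts come from fewer hairpins tested. For siControl against siGFP, leaving out 1 library, which leaves a lone library assumed to vary like the others, gave -0.1739 to 0.0473 for hsa-mir-425 and -0.0291 to 0.1431 for hsa-mir-191. The reversals were 0.0473 without siGFP replicate 1 and 0.0407 without siControl replicate 2 for hsa-mir-425, and for hsa-mir-191 -0.0291 without siControl replicate 2 and -0.0638 with library totals. Calls there were 2 lower and 2 higher with no filter or with DESeq2, 61 lower and 72 higher with the replicate block, and 0 to 1 higher with 1 library left out.

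For K562 against HEK293E, library totals gave 0.53 and 0.55, siGFP libraries alone 1.37 for hsa-mir-425, and leaving out 1 library 1.27 to 1.93 for hsa-mir-425 and 1.49 to 1.69 for hsa-mir-191. Calls were 408 lower and 114 higher with library totals and 135 lower and 103 higher with at least 100 counts, against 230 and 196. For replicate 2 against 1, library totals gave -0.34 and -0.014 with 173 hairpins lower, and leaving out 1 library gave 0 to 179 lower and 0 to 126 higher. Without siGFP replicate 1 or siGFP replicate 2 no hairpin was called. The list of neighbouring hairpins had 6 lower and 2 higher with library totals, 15 lower and 1 higher with the replicate block, and 7 to 12 lower and 0 to 1 higher with 1 library left out. The pair's rank was 1 with at least 1000 counts. In K562 siERH-5 against siGFP, RPM values gave -0.76 for hsa-mir-425 and 0.0794 for hsa-mir-191. Scaling by library totals shifted the median of all hairpins by 0.20 (siERH), -0.13 (siControl), -1.02 (K562) and -0.15 (replicates). Beyond scaling and the number of hairpins tested, the cause of these changes was not tested. Neither knockdown depth nor mature strands could be read from hairpin counts.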

Other observations

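The summed level of the pair was nearly constant within each arm of the HEK293E libraries, which was noticed after the values were seen. The sum of hsa-mir-425 and hsa-mir-191 was 11012 (siGFP replicate 1), 11086 (siControl replicate 1), 10928 (siGFP replicate 2) and 10996 TMM CPM (siControl replicate 2), a mean of 11005 ± 64.7 (SD, n = 4). With siERH it was 6202 (siERH-3 replicate 1), 6134 (siERH-3 replicate 2) and 6205 TMM CPM (siERH-5 replicate 2), a mean of 6180 ± 40.0 (SD, n = 3). Each member alone varied more, with an SD of 428 CPM for hsa-mir-425 and 394 CPM for hsa-mir-191 in controls. On this scale hsa-mir-425 was lower and hsa-mir-191 higher in replicate 2 than in replicate 1, with either control siRNA. On the deposited RPM values the sum was not as constant, at 10431 ± 1051 in controls and 6656 ± 162 with siERH. There hsa-mir-191 went from 5457 in replicate 1 to 5105 in replicate 2 with siGFP, and from 4997 to 5110 with siControl.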
